A study of Mus musculus with 4 samples.

Results

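The genes described here are the cardiac activators *Nkx2-5*, *Mef2a*, *Mef2c*, *Mef2d*, *Myocd*, *Srf* and *Smyd1*, 7 of the 32286 features that the 4 count tables have in common, found by symbol in each table. They were measured by single-cell RNA sequencing in gastruloids, aggregates of mouse embryonic stem cells that form several embryonic tissues in culture. The gastruloids came from the wild type line Zx1 and were dissociated at day 4, 5, 6 or 11, with 1 library per day that pooled at least 8 gastruloids. All 4 groups were given a Wnt agonist early in the culture, and bFGF, VEGF and ascorbic acid were in the medium from day 4 to day 7 only. Day 4 gastruloids were thus collected as these factors came in, and day 11 gastruloids after days without them. As each day is 1 library of 1 line, no difference between days has a replicate check and no test was run. Intervals are exact, at 95%, and where a count is 0 the upper limit given is that of 3 counts. Both cover counting error only.

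*Nkx2-5* is a homeodomain factor of cardiac progenitors and cardiomyocytes. The Mef2 proteins and *Srf* are MADS box factors that bind muscle gene promoters, Mef2 at AT-rich sites and *Srf* at CArG boxes. Myocardin, the product of *Myocd*, binds no DNA on its own and switches on cardiac and smooth muscle genes through *Srf*. *Smyd1* is a methyltransferase of heart and skeletal muscle that is needed to build the sarcomere. Mef2 factors also act in skeletal muscle, where they work with the myogenic bHLH factors, and in endothelium.

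Sequences around RefSeq starts of the genes are shown because they hold, or lack, letters of the kind of site through which these factors are known to act on each other. RefSeq windows of 250 bases before to 50 bases after a gene's start (GRCm38.p6, the patch release of the mm10 build of the data) were found for 6 of the 7 genes, all but *Myocd*. The *Smyd1* and *Nkx2-5* windows belong to starts 59952 and 3444 bases inside the span that GENCODE vM21 gives the gene, at each of which 1 of its transcripts begins. They do not show the sequence before the outermost start. Of the 3 *Mef2c* windows, 2 also lie inside the span, at 19622 and 69573 bases, and no GENCODE transcript begins at the first of these. The *Srf* start lies 13 bases inside the span of its gene, and no GENCODE transcript begins there either. The windows were searched on both strands for the CArG box, the MEF2 site, TNAAGTG (the core of an NKX2 site), AGATAA (the core of a GATA site) and TATAAA, and no matches overlapped. Of 32851 promoter windows of this length, 1.63% hold a CArG box, 3.19% a MEF2 site, 11.5% TNAAGTG, 11.2% AGATAA and 13.6% TATAAA. Capitals mark a match in the windows of *Srf* (chr17:46556113-46556412, minus strand), *Smyd1* (chr6:71262232-71262531, minus strand) and *Nkx2-5* (chr17:26841516-26841815, minus strand), which are printed 5′ to 3′ on the strand of the gene:
Srf: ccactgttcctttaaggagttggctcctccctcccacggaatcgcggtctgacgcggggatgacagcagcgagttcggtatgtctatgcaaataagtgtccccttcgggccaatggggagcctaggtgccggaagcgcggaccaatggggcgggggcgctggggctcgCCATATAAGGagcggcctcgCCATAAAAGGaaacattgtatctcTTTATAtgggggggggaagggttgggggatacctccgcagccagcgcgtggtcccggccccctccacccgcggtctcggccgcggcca
Smyd1: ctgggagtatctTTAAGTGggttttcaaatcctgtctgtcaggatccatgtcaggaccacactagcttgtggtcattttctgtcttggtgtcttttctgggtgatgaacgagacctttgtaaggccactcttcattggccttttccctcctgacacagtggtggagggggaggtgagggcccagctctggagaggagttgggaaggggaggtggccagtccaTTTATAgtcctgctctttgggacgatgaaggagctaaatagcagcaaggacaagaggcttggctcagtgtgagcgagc
Nkx2-5: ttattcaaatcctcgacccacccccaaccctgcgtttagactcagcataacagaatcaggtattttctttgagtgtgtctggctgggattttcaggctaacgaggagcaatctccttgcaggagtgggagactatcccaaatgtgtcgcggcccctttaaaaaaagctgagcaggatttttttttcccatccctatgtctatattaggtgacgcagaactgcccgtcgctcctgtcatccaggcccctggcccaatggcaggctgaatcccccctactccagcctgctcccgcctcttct

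The *Srf* window holds 2 CArG boxes, CCATATAAGG from 82 and CCATAAAAGG from 62 bases before the start, and a TATAAA match on the other strand 38 bases before it. In the *Smyd1* window, TNAAGTG is matched 238 bases before the start and TATAAA, on the other strand, 28 bases before it. The *Nkx2-5* window holds none of the 5 motifs. The *Mef2a* window holds a MEF2 site, CTAAAAATAG, that begins 2 bases before the start. Of the 3 *Mef2c* windows, the outermost and the one at 19622 bases hold a TATAAA match on the other strand and the remaining one none, and the *Mef2d* window holds no match. A match is a description of the letters and was not tested for binding.

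In GENCODE vM21, built on the same assembly, *Nkx2-5* lies on chr17:26838664-26845009 (minus strand), *Mef2a* on chr7:67231163-67372858 (minus), *Mef2c* on chr13:83504034-83667080 (plus), *Mef2d* on chr3:88142372-88172086 (plus), *Myocd* on chr11:65176561-65269989 (minus), *Srf* on chr17:46548329-46556175 (minus) and *Smyd1* on chr6:71213940-71322233 (minus). All 7 are protein-coding. Exons of *Mef2a* overlap exons of *Lysmd4*, and those of *Mef2d* overlap exons of *1700113A16Rik*, each on the opposite strand. The kit counts the 3′ ends of transcripts, so a level is to be compared between cells for the same gene, not between genes.

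After quality limits and removal of likely doublets, 6555, 6457, 5254 and 7854 cells were kept at days 4, 5, 6 and 11, with median depths of 24263, 28144, 24736.5 and 11436.5 unique molecular identifiers (UMIs). Pairs of libraries share 5 to 19 kept barcodes. A level in CPM is the count of UMIs of 1 gene in a set of cells per 1000000 UMIs of all genes in that set. Cells were put into sets by 3 genes that are not described as results. *Myl7*-high cells hold 30 or more UMIs of the atrial light chain *Myl7* per 10000, *Myog* cells at least 1 UMI of the skeletal muscle factor myogenin, *Cdh5* cells at least 1 UMI of the endothelial VE-cadherin, and other cells meet none of these limits. The 8 cells of day 6 and 29 of day 11 that met more than 1 limit were left out. No cell reached the *Myl7* limit at days 4 and 5 (0 of 6555 and 0 of 6457, which allow shares of up to 0.0458% and 0.0465%), where the highest *Myl7* level of a cell was 16.5 and 9.90 per 10000. They numbered 421 at day 6 (8.01% of cells, 95% interval 7.29 to 8.78) and 1256 at day 11 (16.0%, 15.2 to 16.8). *Cdh5* cells numbered 203, 425 and 420 at days 5, 6 and 11, and *Myog* cells 176 at day 11. The 17 *Cdh5* cells of day 4 and the 5, 4 and 3 *Myog* cells of days 4, 5 and 6 were too few to be used. Against other cells, *Myl7*-high cells held all 12 cardiomyocyte markers at least 2-fold higher on both days, *Myog* cells all 12 skeletal muscle markers, and *Cdh5* cells 11, 12 and 12 of 12 endothelial markers at days 5, 6 and 11. *Myog* cells also held 6 of the 12 cardiomyocyte markers at least 2-fold higher, and all 12 summed to 6140 CPM against 598 CPM in other cells. Of the 12 skeletal muscle markers, *Myl7*-high cells held 3 at least 2-fold higher at day 6 (83.0 against 7.19 CPM over all 12) and 1 at day 11 (32.9 against 11.8 CPM). Of the 12 endothelial markers, *Myl7*-high cells of day 11 held 1 so, *Egfl7* (94.4 against 41.3 CPM, and 101 against 70.3 CPM over all 12). *Cdh5* cells of day 6 held 2 of 6 haematopoietic markers at least 2-fold higher (9.99 against 31.8 CPM over all 6). They also held 1 of 12 skeletal muscle markers so (9.74 against 7.19 CPM over all 12). Of 6 endoderm markers, 1 was higher in *Cdh5* cells on each day, *Sox17*, which is also on the endothelial list. Whether RNA of other cells, free or in remaining doublets, adds to a set was not tested.

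The first question was when the activators appeared. *Nkx2-5*, *Myocd* and *Smyd1* were near 0 at days 4 and 5 and present at day 6, *Mef2c* dipped at day 5 before a rise, and *Mef2a*, *Mef2d* and *Srf* were found from day 4 on. *Nkx2-5* stood at 0.204, 0.281, 10.3 and 38.9 CPM over all cells of days 4, 5, 6 and 11. It rose 36.4-fold between days 5 and 6 (95% interval 27.9 to 48.5) and a further 3.79-fold by day 11 (3.58 to 4.02). *Myocd* stood at 0.348, 0.231, 12.5 and 14.6 CPM, and its rise at day 6 was 54.3-fold (40.5 to 74.4). *Smyd1* stood at 0.307, 0.432, 17.7 and 41.4 CPM, with a 40.9-fold rise at day 6 (33.0 to 51.3) and a 2.34-fold rise by day 11 (2.23 to 2.46). The 2 days before day 6 held only 40 to 86 UMIs of each of these 3 genes over all cells of a day.

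*Mef2c* stood at 12.8, 4.78, 137 and 123 CPM on the 4 days. It fell 2.67-fold at day 5 (95% interval 2.48 to 2.88) and rose 28.7-fold at day 6 (26.9 to 30.7). At day 4 its UMIs were at 15.8 CPM in cells with 2 or more UMIs of the early mesoderm factor *Mesp1* and at 1.37 CPM in cells with 5 or more UMIs of the epithelial gene *Epcam*. *Mef2a* stood at 23.3, 39.9, 47.4 and 84.5 CPM, a climb with no step past the 2-fold limit between neighbouring days. *Mef2d* (10.4, 9.99, 13.3 and 18.4 CPM) and *Srf* (9.14, 6.82, 7.53 and 5.16 CPM) had no such step either.

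A gene is called higher or lower here when its CPM plus 2 differed at least 2-fold between 2 sets that held at least 20 of its UMIs together. By this limit, *Mef2c* was the 1 gene of 7 lower at day 5, where 1.93% of all genes tested were lower. At day 6, *Nkx2-5*, *Mef2c*, *Myocd* and *Smyd1* (4 of 7) were higher, against 7.1% of genes. At day 11, *Nkx2-5* and *Smyd1* (2 of 7) were higher, against 7.02% of genes. The call of *Mef2c* at day 5 ended when 5 CPM in place of 2 were added, and that of *Smyd1* at day 11 ended when the CPM of single cells were averaged, which gave 1.35-fold.

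The whole-day levels mix the number and the depth of the cells that use a gene with the level in those cells. Deeper cells weigh more, since UMIs were pooled. Median depths of *Myl7*-high and other cells were 23669 and 24353 UMIs at day 6, and 17411.5 and 10500 at day 11. *Nkx2-5* rose 3.79-fold over all cells from day 6 to day 11, while in *Myl7*-high cells alone it went from 93.1 to 149 CPM, a ratio of 1.60 (95% interval 1.49 to 1.71) that did not pass the limit, and the share of *Myl7*-high cells went from 8.01% to 16.0%. *Smyd1*, at 151 and 165 CPM in *Myl7*-high cells, had a ratio of 1.09 (1.03 to 1.16). *Myl7*-high cells held 67.1% of all *Nkx2-5* UMIs at day 6 and 85.7% at day 11. For *Smyd1* they held 63.2% and 89.3%, and for *Myocd* 58.7% and 81.8%. The other genes were spread more widely: at day 11 these cells held 46.6% of the UMIs of *Mef2d*, 42.3% of *Mef2a*, 35.8% of *Mef2c* and 24.6% of *Srf*. These shares are to be read beside those of all genes. *Myl7*-high cells held 1.11e+07 of 1.50e+08 UMIs at day 6 and 2.54e+07 of 1.14e+08 at day 11.

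**Figure D1:**
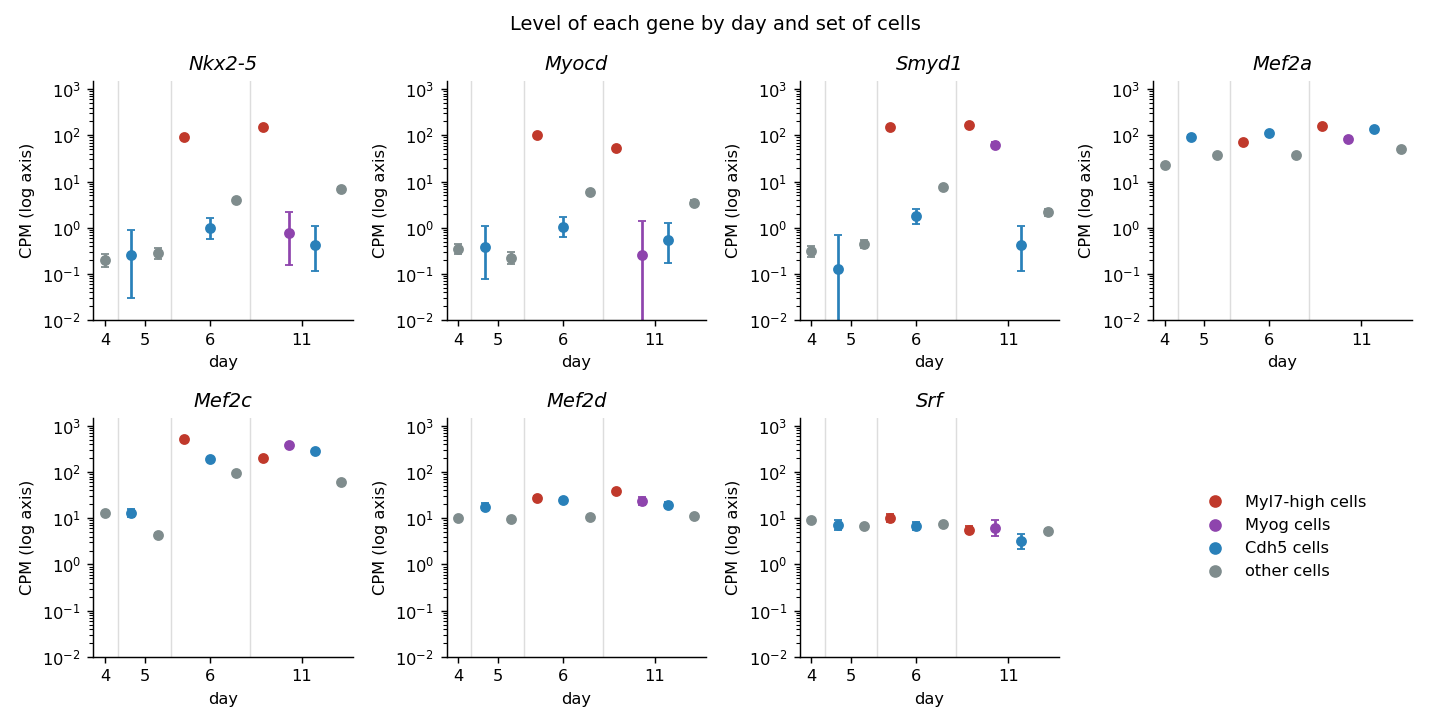
Level of each gene (CPM, log axis) in other, *Cdh5*, *Myog* and *Myl7*-high cells of each day, with exact 95% Poisson intervals as bars. *Nkx2-5* and *Myocd* stand high only in the red points of *Myl7*-high cells, *Smyd1* also in *Myog* cells. *Mef2c* stands high in *Myl7*-high and *Cdh5* cells at days 6 and 11 and in *Myog* cells at day 11. *Srf* lies between 3.19 and 10.3 CPM in every set.

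The second comparison asked which activators marked the *Myl7*-high cells. *Nkx2-5*, *Myocd* and *Smyd1* were the most set apart on both days, the Mef2 genes less so, and *Srf* was not. At day 6 *Nkx2-5* was at 93.1 CPM in *Myl7*-high cells (95% interval 87.5 to 98.9) and at 3.91 CPM in other cells (3.56 to 4.27), 23.8-fold higher (21.4 to 26.6). At day 11 it was at 149 CPM (144 to 154) against 6.94 CPM (6.35 to 7.57), 21.4-fold higher (19.5 to 23.5). Only 4 UMIs of it were found in all *Cdh5* cells of that day and 3 in all *Myog* cells.

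*Myocd* was at 99.5 CPM in *Myl7*-high cells of day 6 against 6.08 CPM in other cells, 16.4-fold higher (95% interval 14.9 to 18.0). At day 11 it was at 53.4 against 3.46 CPM, 15.4-fold higher (13.5 to 17.7). *Smyd1* was at 151 against 7.49 CPM at day 6, 20.2-fold higher (18.6 to 21.9), and at 165 against 2.15 CPM at day 11, 76.7-fold higher (65.5 to 90.5). The *Smyd1* ratio of day 11 depended on where the other cells began. It was 28.6-fold with 60 *Myl7* UMIs per 10000 as the limit, 243-fold with 15, and 405-fold when other cells were restricted to those under 1 per 10000, a setting added once the values were known. *Nkx2-5* at day 11 was 13.9-fold higher with the limit of 60. The last setting moved it to 34.3-fold and, at day 6, *Myocd* to 37.5-fold and *Smyd1* to 45.7-fold.

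Of the Mef2 genes, *Mef2c* differed most at day 6, at 521 CPM in *Myl7*-high cells (95% interval 507 to 534) against 94.3 CPM in other cells, 5.52-fold higher (5.35 to 5.70). At day 11 it was at 197 against 61.4 CPM, 3.20-fold higher (3.07 to 3.33). *Mef2d* was 2.67-fold higher at day 6 (27.8 against 10.4 CPM) and 3.49-fold at day 11 (38.3 against 11.0 CPM). *Mef2a* had a ratio of 1.89 at day 6 (70.1 against 37.2 CPM), short of the limit, and was 3.12-fold higher at day 11 (159.8 against 51.2 CPM). *Srf* had ratios of 1.40 (1.15 to 1.71) and 1.09 (0.896 to 1.33), from 10.3 against 7.32 CPM and 5.66 against 5.18 CPM, and passed the limit on neither day.

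In all, 5 of 7 genes were higher in *Myl7*-high cells at day 6, where 5.1% of genes tested were higher, and 6 of 7 at day 11, where 7.67% were. None of the 7 was lower on either day, beside 5.52% of genes tested at day 6 and 14% at day 11. The median log2 ratio over all genes tested was -0.09 at day 6 and -0.23 at day 11, and it was -0.31 for *Myog* cells, -0.08, -0.11 and -0.22 for *Cdh5* cells of days 5, 6 and 11, and 0.12 for *Myl7*-high against *Myog* cells. The ratios above are not corrected for this shift.

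**Figure D2:**
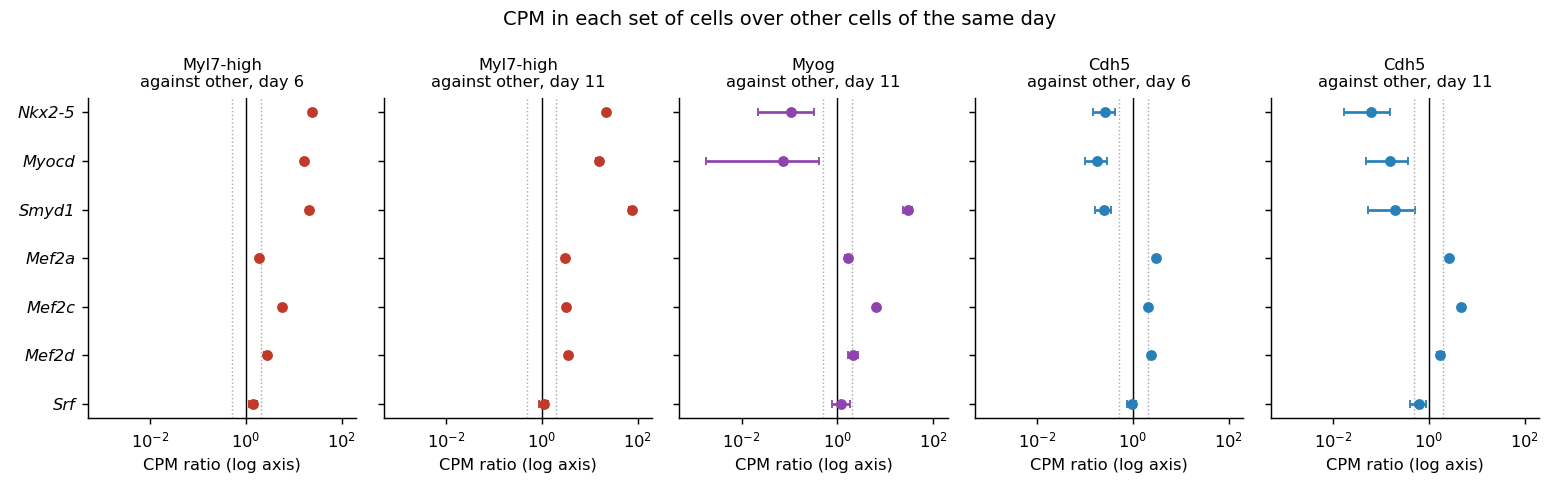
Ratio of the CPM of each gene in *Myl7*-high, *Myog* or *Cdh5* cells to that in other cells of the same day (log axis), with exact conditional binomial 95% intervals and dotted lines at 2-fold. The 5 panels cover days 6 and 11. In them *Nkx2-5* and *Myocd* lie to the right of 1 only for *Myl7*-high cells, *Smyd1* also for *Myog* cells, and the Mef2 genes lie to the right of 1 in every panel.

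Because depth differed between sets, shares of cells with a UMI were taken from a random draw of 5000 UMIs per cell, with shallower cells left out. This left out 4 of 421 *Myl7*-high and 0 of 425 *Cdh5* cells at day 6, and 107 of 1256 and 26 of 420 at day 11. At day 6 *Nkx2-5* was found in 32.4% of *Myl7*-high cells, *Myocd* in 38.8%, *Smyd1* in 46.8% and *Mef2c* in 84.4% (95% interval 80.6 to 87.8). Among *Cdh5* cells of that day, which should lack the first 3, the shares were 0.706%, 0.235% and 0.941%, and the unthinned median depths were 23669 UMIs in *Myl7*-high and 32533 in *Cdh5* cells. At day 11 *Nkx2-5* was found in 48.2% of *Myl7*-high cells (45.3 to 51.1), *Myocd* in 20.8%, *Smyd1* in 49.7% and *Mef2c* in 57.3%. In *Cdh5* cells of day 11 *Nkx2-5* and *Myocd* were each in 0.254% and *Smyd1* in 0 of 394 thinned cells, which allows a share of up to 0.761%, with median depths of 17411.5 and 17355.5 UMIs before thinning. The depth chosen sets both the UMIs per cell and the cells used (55 and 230 *Myl7*-high cells of day 11 were left out at 3000 and 10000 UMIs). Thinned to these depths, *Nkx2-5* was in 21.4% and 48.5% of *Myl7*-high cells at day 6 and in 35.1% and 70.1% at day 11, and *Mef2c* in 70.3% and 94.1% and then in 42.1% and 79.5%. Without thinning, and over all 1256 cells, the *Myl7*-high shares at day 11 were 75.4% for *Nkx2-5*, 77.6% for *Smyd1*, 50.5% for *Myocd* and 84.1% for *Mef2c*.

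A thinned *Myl7*-high cell held UMIs of a median of 2 of the 7 genes on both days. At least 1 of the 7 was seen in 95.9% of these cells at day 6 and 95.3% at day 11, and 3 or more in 49.2% and 46.9%. Other cells held a median of 0, with 3 or more in 2.69% at day 6 and 1.21% at day 11.

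**Figure D3:**
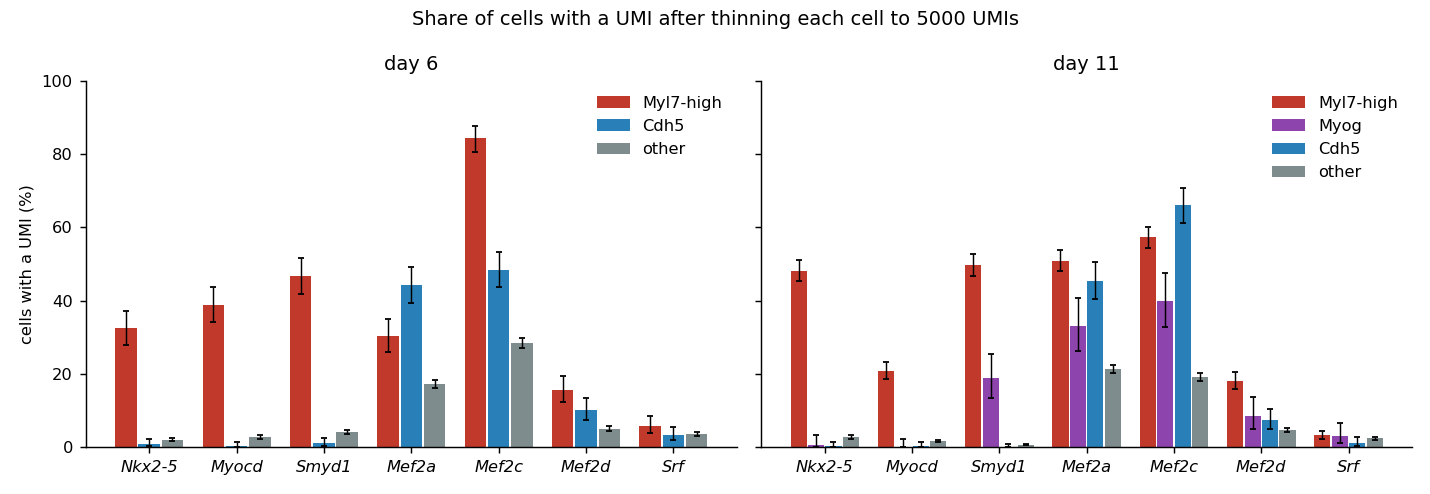
Share of cells with a UMI of each gene at days 6 and 11 after thinning to 5000 UMIs per cell, by set, with exact binomial 95% intervals. *Mef2c* is in 84.4% of *Myl7*-high cells at day 6 and 57.3% at day 11, while *Nkx2-5* goes from 32.4% to 48.2%.

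Within *Myl7*-high cells, 2 of the Mef2 genes moved in opposite directions between day 6 and day 11. *Mef2c* fell from 521 to 197 CPM, a 2.65-fold decrease (95% interval 2.55 to 2.75), and *Mef2a* rose from 70.1 to 159.8 CPM, 2.28-fold (2.11 to 2.46). *Mef2d* went from 27.8 to 38.3 CPM, a ratio of 1.38 (1.21 to 1.57). *Myocd* went from 99.5 to 53.4 CPM, a ratio of 0.537 (0.495 to 0.582), and *Srf* from 10.3 to 5.66 CPM, a ratio of 0.551 (0.428 to 0.710), neither past the limit. *Myocd* passed it when *Myl7*-high cells were defined by 60 per 10000. *Mef2a* was thus 1 of 7 higher, where 6.44% of genes were higher, and *Mef2c* 1 of 7 lower, where 5.57% were lower. The days differ in library, depth, software version and culture medium, and these cannot be told apart from time.

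The genes were then followed along the *Myl7* level of all kept cells, for day 6 and day 11 separately. This also gives the values on both sides of the limit of 30 per 10000. Percentages are of the level of the same gene in the cells with the most *Myl7*, called its top level here even where a lower step held more. At day 6, cells with 5 to 30 *Myl7* UMIs per 10000 (335 cells) held *Mef2c* at 331 CPM. That was 69.7% of the level in the cells with 200 or more (474 CPM, 55 cells). The 335 cells held *Myocd* at 38.1 CPM, 37.1% of the top level, *Smyd1* at 49.6 CPM, 26.7%, and *Nkx2-5* at 13.4 CPM, 7.93%. Even in the 496 cells with 1 to 5 *Myl7* UMIs per 10000, *Mef2c* was at 203 CPM, 42.7% of the top level, and *Nkx2-5* at 5.87 CPM, 3.48%. Part of this level was also held without *Myl7*. The 2364 cells with no *Myl7* UMI held *Mef2c* at 77.1 CPM, 16.3%, and *Nkx2-5* at 2.89 CPM, 1.71%. They held *Myocd* at 1.84% and *Smyd1* at 1.45% of the top level, but *Mef2a* at 59.1% and *Srf* at 60.8%. Just above the limit, in the 209 cells with 30 to 100 per 10000, *Nkx2-5* reached 42.0 CPM, *Myocd* 79.2 CPM, *Smyd1* 104 CPM and *Mef2c* 497 CPM. *Nkx2-5* was at 122 CPM in the next step (100 to 200) and at 168.8 CPM in the highest (95% interval 149 to 190 CPM). *Mef2c* and *Myocd* were at 557 and 119 CPM in the step of 100 to 200, above their 474 and 103 CPM in the highest.

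At day 11 the same steps held a different order. In cells with 5 to 30 *Myl7* UMIs per 10000 (186 cells), *Nkx2-5* was at 61.4 CPM, 37.7% of its top level, beside *Myocd* at 36.9%, *Smyd1* at 24.2% and *Mef2c* at 57.0% of theirs. Cells with 1 to 5 per 10000 held *Mef2c* at 66.6 CPM, below the 96.7 CPM of the 4231 cells with no *Myl7* UMI, which include *Myog* and *Cdh5* cells. *Srf* stayed between 6.75 and 11.9 CPM along the 7 steps of day 6 and between 3.77 and 6.91 CPM along those of day 11. The steps share a library, and whether free *Myl7* RNA or mixed cells fill the low steps was not tested.

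**Figure D4:**
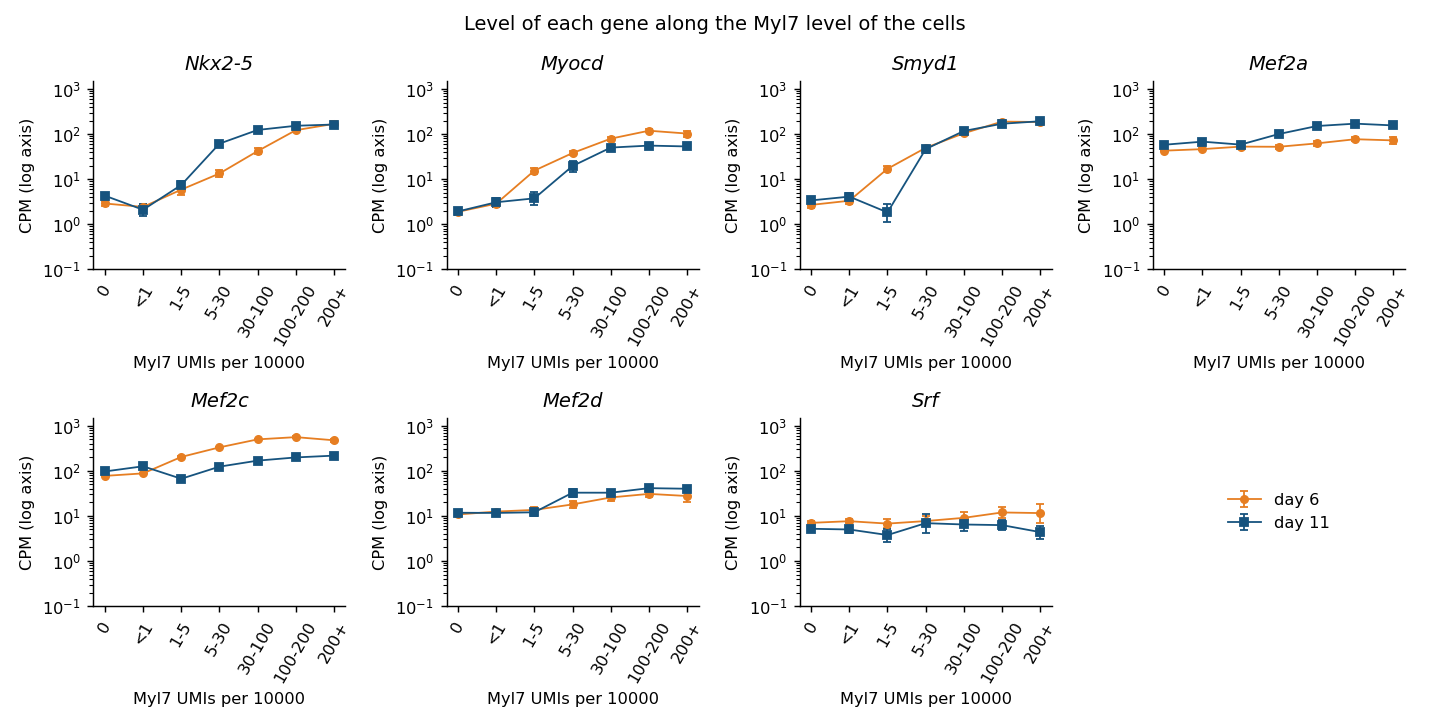
CPM of each gene (log axis) in cells grouped by *Myl7* UMIs per 10000, at day 6 (orange circles) and day 11 (blue squares), with exact 95% Poisson intervals. At day 6, cells with 5 to 30 *Myl7* UMIs per 10000 hold *Mef2c* at 69.7% of its own level in the highest step and *Nkx2-5* at 7.93% of its own. Cells with no *Myl7* UMI hold them at 16.3% and 1.71%.

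Within the *Myl7*-high cells of day 11 the activators varied less than 2-fold between the groups formed. *Nkx2-5* was at 177 CPM (95% interval 168 to 186) in 344 cells with 10 or more UMIs per 10000 of the ventricular light chain *Myl2*, and at 122 CPM (116 to 128) in 571 of the remaining cells that held 2 or more UMIs of *Shox2*, a factor of the sinus venosus and pacemaker tissue. The 308 cells with neither, and with less than 5 per 10000 of the atrial peptide gene *Nppa*, were at 165 CPM, and cells with more *Nppa* were under 50 in number and were not used. *Mef2c* ran the other way, at 157 CPM in *Myl2*-high and 228 CPM in *Shox2* cells. Against all remaining *Myl7*-high cells, *Shox2* cells had ratios of 0.706 for *Nkx2-5* (0.661 to 0.754) and 1.36 for *Mef2c* (1.29 to 1.44), and 0.964 for *Smyd1* (0.907 to 1.02). At day 6, 134 *Shox2* cells held *Nkx2-5* at 67.1 CPM and *Smyd1* at 107 CPM, with ratios of 0.634 (0.547 to 0.732) and 0.615 (0.548 to 0.690). In 93 cycling cells of day 11, with 2 or more UMIs of *Mki67*, *Nkx2-5* was at 167 CPM, a ratio of 1.14 to cells with none (1.04 to 1.26), and *Srf* was at 3.31 CPM, a ratio of 0.542 (0.254 to 1.03).

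Skeletal muscle cells were compared next, since *Mef2c*, *Smyd1* and *Srf* also serve that tissue. Of the activators, *Myog* cells of day 11 shared *Mef2c* and *Smyd1* with *Myl7*-high cells but not *Nkx2-5* or *Myocd*. *Mef2c* was at 384 CPM (95% interval 365 to 403), 6.24-fold above other cells (5.89 to 6.62), and *Smyd1* at 62.9 CPM (55.4 to 71.2), 29.3-fold above them (23.9 to 35.9). *Nkx2-5* had 3 UMIs in *Myog* cells, 0.755 CPM, a ratio of 0.109 to other cells (0.0224 to 0.320). *Myocd* had 1 UMI, 0.252 CPM, a ratio of 0.0727 (0.00183 to 0.409). Over the alternatives these ratios ran from 0.0961 to 0.247 for *Nkx2-5* and from 0.0438 to 0.452 for *Myocd*. *Mef2a* and *Mef2d* were at 83.6 and 23.4 CPM, with ratios of 1.63 and 2.13 that did not pass the limit, and *Srf* at 6.29 CPM had a ratio of 1.21. *Mef2d* passed the limit under 6 of the alternatives, among them when *Myog* cells had to hold 2 UMIs of *Myog*.

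Higher in *Myog* cells were thus 2 of 7 genes, against 3.15% of genes tested, and lower were *Nkx2-5* and *Myocd*, 2 of 7, against 12.6%. The call of *Myocd* ended with 5 CPM added and with a *Myl7* limit of 60. Compared directly, *Myl7*-high cells held *Nkx2-5*, *Myocd* and *Smyd1* higher than *Myog* cells, 3 of 7 genes against 15.5% of genes. The ratios were 197 for *Nkx2-5* (95% interval 67.3 to 955) and 2.62 for *Smyd1* (2.31 to 2.99). With a *Myl7* limit of 60 that of *Nkx2-5* was 56.2, and the ratio of *Smyd1* in *Myog* to other cells was 10.6, against 154 with other cells under 1 *Myl7* UMI per 10000. *Mef2c* went the other way, with a ratio of 0.512 (0.484 to 0.543) that fell just short of the limit and passed it under 4 alternatives.

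The mean level of *Mef2c* in *Myog* cells hid a split between cells. After thinning, the variance of its counts was 5.91 times their mean in *Myog* cells and 1.23 times in *Myl7*-high cells, where a random draw from equal cells gives a value near 1. In the 59 *Myog* cells with 2 or more UMIs of *Myh3*, the embryonic myosin heavy chain of differentiating fibres, *Mef2c* stood at 1030.0 CPM (95% interval 977 to 1085), above its level in each of the 10 sets of at least 50 cells. In the remaining 117 *Myog* cells it was at 32.3 CPM, a ratio of 31.9 (25.6 to 40.3). *Smyd1* was at 155.1 CPM in the first and 12.8 CPM in the second, 12.1-fold higher (8.36 to 18.0). *Mef2d* was at 42.2 against 13.2 CPM, 3.19-fold higher (2.06 to 5.02), and *Mef2a* at 131 against 57.9 CPM, 2.26-fold higher (1.81 to 2.82). *Srf* was at 4.29 against 7.38 CPM, a ratio of 0.581 with an interval from 0.190 to 1.51. The 413 other cells with a UMI of *Pax7* or *Myf5*, factors of muscle precursors of which *Pax7* is also used in neural tissue, held *Mef2c* at 12.3 CPM and *Smyd1* at 1.42 CPM.

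**Figure D5:**
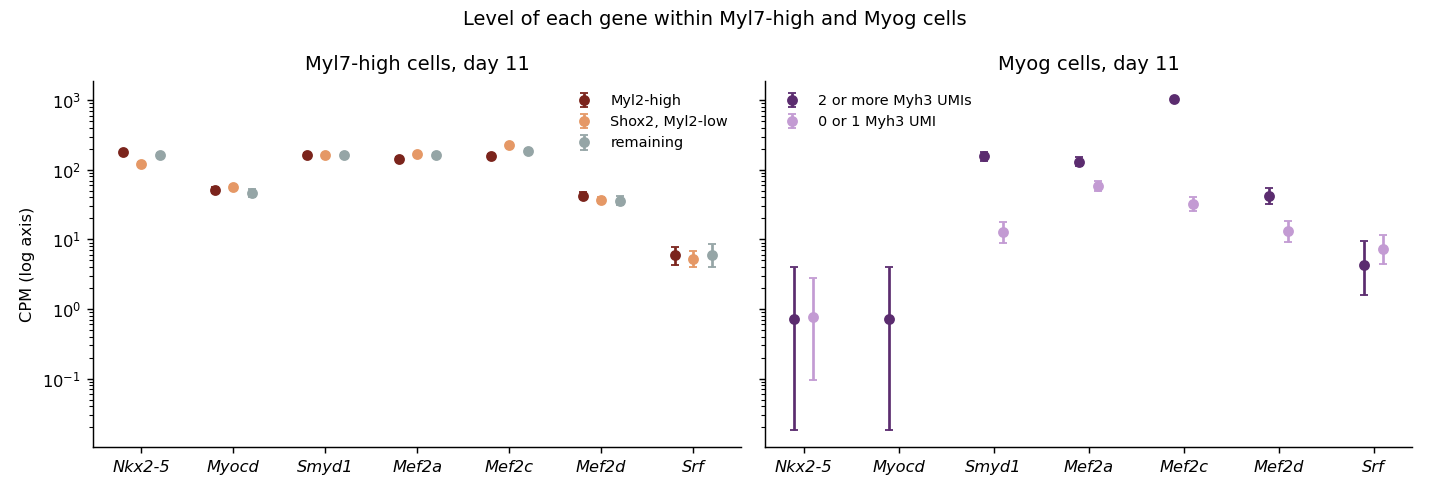
CPM of each gene (log axis, exact 95% Poisson intervals) at day 11 within *Myl7*-high cells, split by *Myl2* and *Shox2*, and within *Myog* cells, split by *Myh3*; a gene with 0 UMIs has no point. *Mef2c* stands at 1030.0 CPM in *Myog* cells with 2 or more *Myh3* UMIs and at 32.3 CPM in the rest, while the *Myl7*-high groups lie close together.

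Endothelial cells held *Mef2a* and *Mef2c* above other cells, but not *Nkx2-5*, *Myocd* or *Smyd1*. *Mef2a* was higher in *Cdh5* than in other cells on all 3 days, at 94.3 against 37.6 CPM at day 5 (2.51-fold, 95% interval 2.32 to 2.70), 110.3 against 37.2 CPM at day 6 (2.97-fold, 2.81 to 3.13) and 136 against 51.2 CPM at day 11 (2.66-fold, 2.49 to 2.83). At days 5 and 6 no other set held a higher *Mef2a* level. *Mef2c* was at 13.1, 196 and 292 CPM in *Cdh5* cells of days 5, 6 and 11, 2.94-fold (2.38 to 3.61), 2.08-fold (2.00 to 2.17) and 4.75-fold (4.52 to 4.98) above other cells. *Mef2d* was at 17.8, 24.9 and 19.0 CPM, and passed the limit only at day 6, at 2.40-fold (2.14 to 2.69).

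The calls of *Mef2c* and *Mef2d* at day 6 both ended when every cell with more than 200 genes was used, when doublets were kept and when single-cell CPM were averaged, and each under 1 further alternative. That of *Mef2c* in *Cdh5* cells of day 5 ended with 5 CPM added. *Myocd* (1.06 against 6.08 CPM) and *Smyd1* (1.81 against 7.49 CPM) were lower in *Cdh5* cells at day 6, and *Nkx2-5* (0.425 against 6.94 CPM) and *Myocd* (0.531 against 3.46 CPM) at day 11. Of these, the calls of *Myocd* and *Smyd1*, but not that of *Nkx2-5*, ended when other cells were restricted to those under 1 *Myl7* UMI per 10000. By direction, 2, 3 and 2 of the 7 genes were higher on days 5, 6 and 11, beside 2.22%, 6.14% and 6.16% of all genes tested, and 2 of 7 were lower on each of days 6 and 11, beside 5.34% and 12% of all genes.

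The other cells were not uniform for *Mef2c*. Cells were picked out of them by 1 gene at a time, which leaves many cells in no such gate, and the 2-fold limit was not applied to gates. At day 11 the highest *Mef2c* level among the gates tried was in 53 cells with 2 or more UMIs of *Tyrobp*, an adaptor protein of myeloid cells, at 353 CPM (95% interval 323 to 384), 6.37-fold above the rest of the other cells (5.80 to 6.97). These cells held 0 UMIs of *Nkx2-5*, *Myocd* and *Smyd1*, which allows up to 2 CPM of each (3 UMIs). The 650 cells with 2 or more UMIs of the neural factor *Sox2* held *Mef2c* at 9.46 CPM. At day 6 it was at 141 CPM in 1043 cells with 2 or more UMIs of *Isl1*, a factor of second heart field progenitors, and at 146 CPM in 671 with as many of *Tcf21*, a factor of pharyngeal and epicardial mesoderm, against 4.08 CPM in 159 *Epcam* cells.

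*Nkx2-5* and *Myocd* were also found at low levels in mesoderm-type other cells. At day 6 *Isl1* cells held *Nkx2-5* at 6.87 CPM (95% interval 5.98 to 7.85) and *Myocd* at 11.4 CPM, 2.38-fold (1.98 to 2.86) and 2.70-fold (2.34 to 3.13) above the rest of the other cells. At day 11, 817 *Tcf21* cells held *Nkx2-5* at 11.2 CPM and *Myocd* at 7.42 CPM, 1.79-fold (1.45 to 2.21) and 2.65-fold (2.01 to 3.47) above the rest, while *Smyd1* was at 0.657 CPM there, a ratio of 0.273 (0.108 to 0.577). These gates overlap one another, and the other cells include those with up to 30 *Myl7* UMIs per 10000. Among other cells under 1 per 10000, the 835 *Isl1* cells of day 6 held *Nkx2-5* at 5.34 CPM and *Myocd* at 4.72 CPM, with ratios to the rest of 2.45 (1.94 to 3.09) and 2.39 (1.87 to 3.05). In the same way, the 654 *Tcf21* cells of day 11 held *Nkx2-5* at 11.0 CPM and *Myocd* at 5.78 CPM, with ratios of 3.41 (2.63 to 4.41) and 2.73 (1.92 to 3.84), and 0 UMIs of *Smyd1*.

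Ordered over the 10 sets with at least 50 cells, *Nkx2-5* was highest in *Myl7*-high cells of day 11 (149 CPM), then of day 6 (93.1 CPM), and the neighbours from *Cdh5* cells of day 6 (0.999 CPM) down to day 4 (0.20 CPM) did not differ beyond counting error. *Mef2c* ran from *Myl7*-high cells of day 6 (521 CPM) through *Myog* (384 CPM) and *Cdh5* cells of day 11 (292 CPM) to *Myl7*-high cells of day 11 (197 CPM) and *Cdh5* cells of day 6 (196 CPM), the last 2 of which did not differ beyond counting error. For *Srf*, 7 of the 9 steps between neighbours lay within counting error. In Pearson correlations of log2 CPM over these 10 sets, which share 4 libraries and so are given as a description, *Nkx2-5* and *Myocd* were most alike (r = 0.976), and *Mef2a* was closer to *Mef2d* (0.843) than to *Mef2c* (0.597).

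Among 10335 genes, those whose pattern was most like *Nkx2-5* were *Ppargc1a*, a coactivator of mitochondrial genes, the calcium release channel *Ryr2* and the small heat shock protein *Hspb7* (r = 0.996, 0.994 and 0.994). For *Myocd* they were *Esrrg*, *Lrrc39* and *Mir670hg* (0.990, 0.988 and 0.986), and for *Smyd1* *Trim55*, *Fbxl22* and *Ramp1* (0.989, 0.988 and 0.987). For *Mef2a* they were *S100a13*, *Tspan9* and *Lrrn2* (0.969, 0.954 and 0.948), for *Mef2c* *Uso1*, *Macf1* and *Plekho1* (0.956, 0.947 and 0.942), for *Mef2d* *Myo18a*, *Fam78a* and *Ehd4* (0.960, 0.943 and 0.939), and for *Srf* *Hebp2*, *Pcnp* and *Lss* (0.924, 0.902 and 0.895). Pearson r compares the shape of a pattern, not its size. *Uso1* ran from 13.5 to 30.5 CPM over the sets, and *Mef2c* from 4.44 to 521 CPM. As most steps of *Srf* lay within counting error, its matches say little.

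Known partners of the activators were read from a list of 14. In *Myl7*-high cells 5 were higher at day 6 and 6 at day 11, where 5.1% and 7.67% of all genes tested were, with a median log2 ratio over the list of 0.47 and 0.81. At day 11 these were the cardiac factors *Gata4* (40.8 against 9.43 CPM), *Gata6* (324 against 126 CPM), *Hand1* (11.4 against 4.28 CPM), *Tbx5* (61.0 against 10.6 CPM) and *Tbx20* (78.0 against 10.2 CPM), and the myosin chaperone *Unc45b* (127 against 2.49 CPM). All but *Hand1* were also higher at day 6. *Naca*, whose muscle form binds *Smyd1*, was lower at day 11 (974 against 2274 CPM), as were 14% of all genes. The myocardin-related coactivators *Mrtfa* (5.19 against 6.16 CPM) and *Mrtfb* (27.0 against 18.9 CPM) did not pass the limit. In *Myog* cells *Unc45b* (46.6 CPM) and *Tbx1* (10.1 CPM) were higher, and *Gata4*, *Gata6*, *Hand1*, *Hand2*, *Tbx5* and *Tbx20* were lower, 2 and 6 of 14 beside 3.15% and 12.6% of all genes. In *Cdh5* cells 0 and 2 of the 14 were higher at days 6 and 11, beside 6.14% and 6.16% of all genes. There, 3 and 2 were lower, beside 5.34% and 12%.

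Of 12 genes on a list of inhibitors, 3 were higher and 1 lower in *Myl7*-high cells at day 6, and 4 were higher and 3 lower at day 11. Of all genes, 5.1% were higher and 5.52% lower at day 6, and 7.67% higher and 14% lower at day 11. The higher ones at day 11 were the Mef2 repressors *Hdac5* (36.2 against 14.7 CPM) and *Hdac9* (15.5 against 5.25 CPM), the *Srf* inhibitor *Hopx* (149 against 12.8 CPM) and the cardiac ankyrin repeat protein *Ankrd1* (137 against 0.812 CPM). The lower ones were *Hdac7*, *Elk3* and *Klf4*. In *Cdh5* cells 3, 4 and 2 of the 12 were higher at days 5, 6 and 11, beside 2.22%, 6.14% and 6.16% of all genes. In these cells 1 and 0 of the 12 were lower at days 6 and 11, beside 5.34% and 12% of all genes. At day 5, 1 of the 12, *Foxo4*, was lower, and the share of all genes lower on that day was not taken. The class II deacetylase *Hdac7* and the ternary complex factor *Elk3* were higher there on all 3 days, at 63.0 against 13.9 CPM and 167 against 20.02 CPM at day 6, and at 52.1 against 15.7 CPM and 163 against 36.4 CPM at day 11.

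Of 26 known targets, 22 could be tested at day 6 and 19 were higher in *Myl7*-high cells, beside 5.1% of all genes, with a median log2 ratio of 3.84. At day 11, 23 of 26 were higher and 3 lower, beside 7.67% and 14% of all genes, with a median of 3.98. The targets *Nppa*, *Myh6*, *Myh7*, *Ryr2* and *Pln* are also on the cardiomyocyte marker list, and *Acta1* is on the skeletal muscle list. These counts are thus not independent of the marker counts above. The higher ones included cardiac actin *Actc1* (9652 against 156 CPM at day 11), *Csrp3* (231 against 2.95 CPM at day 6, 1850.3 against 14.3 CPM at day 11), the atrial peptide *Nppa* (3.52 against 0.114 CPM at day 6, 177 against 1.23 CPM at day 11) and *Ryr2* (389.7 against 8.98 CPM at day 11). The 3 lower ones were the immediate early genes *Fos* (58.3 against 322 CPM), *Egr1* (65.2 against 286 CPM) and *Jun* (113 against 297 CPM), which are *Srf* targets in many cell types. In *Myog* cells 9 of the 24 tested were higher, among them skeletal actin *Acta1* (852 against 0.636 CPM) and calsequestrin 2 (*Casq2*, 73.0 against 0.352 CPM), and 6 were lower, among them *Ryr2* (2.01 against 8.98 CPM) and *Pln* (3.52 against 15.7 CPM), beside 3.15% and 12.6% of all genes. In *Cdh5* cells of day 6, 2 of the 22 tested were higher and 5 lower, beside 6.14% and 5.34% of all genes. At day 11, 1 of the 24 tested was higher and 14 lower in *Cdh5* cells, beside 6.16% and 12%. From day 6 to day 11 within *Myl7*-high cells, 10 of 26 targets were higher and 1, smooth muscle actin *Acta2* (4692 to 2069 CPM), was lower, beside 6.44% and 5.57% of all genes.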

How the data were processed

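The authors deposited, for each of the 4 libraries (days 4, 5, 6 and 11), UMI counts of every gene in every called cell as a matrix, not normalized. Libraries were made with the Chromium 3′ kit v3.1, and the submitters' processing notes name Cell Ranger 3.1.0 and mm10, while the file header of day 11 names 6.0.1. The matrices hold 7324, 7794, 6628 and 9584 cells and 227398362, 236714826, 182150138 and 149169498 UMIs, so day 11 is the shallowest and limits genes with few UMIs most.

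Cells were kept with more than 200 genes, under 20% mitochondrial and over 5% ribosomal protein UMIs, and log10 UMIs within 3 median absolute deviations, and the 8% with the highest doublet scores (simulated doublets, 30 principal components) were removed. CPM, ratios, and shares after thinning to 5000 UMIs were computed from the deposited counts with Python 3.11.15, numpy 2.4.6, scipy 1.17.1 and pandas 2.3.3. Sequence windows and coordinates were read from RefSeq and GENCODE vM21. *Myl7*, *Myog* and *Cdh5* were left out of counts of genes, and sets under 50 cells were not compared. As the 4 labels give 1 library per day, no test was run. Calls and intervals were checked on simulated counts. The text names the 7 genes in every set, members of the fixed partner, inhibitor and target lists (mostly those past 2-fold), the 3 genes most alike each, and fixed gates. Genes and lists were chosen with earlier results of these data known. The alternatives were other filters on cells and genes, doublets kept, other limits for the sets, other CPM and added CPM, other thinning depths, and, chosen after the data had been seen, other cells, and gates among them, under 1 *Myl7* UMI per 10000.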

Additional observations from a re-analysis of the deposited data

How the results depend on the processing

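Of 658 alternative values for the CPM ratios of the 7 genes, none reversed a call, 555 stayed within the interval of the reported ratio, 103 left it and 38 differed from it more than 1.5 times. Most of those 38 were ratios of *Nkx2-5*, *Myocd* or *Smyd1* to a set with few of their UMIs. Of 140 shares of cells at the other thinning depths, 103 left the interval of the reported share. No paired analysis was possible because each day is 1 library. Counts of the 7 genes called that moved more than 1.5 times were as follows, with the cause not tested. Among *Cdh5* cells of day 6, the 3 higher became 1 with every cell of more than 200 genes, with doublets kept and with averaged single-cell CPM, and the 2 lower became 0 with 5 CPM added and 0 with other cells under 1 *Myl7* UMI per 10000. Among *Cdh5* cells of day 5, the 2 higher became 1 with 5 CPM added. Among *Cdh5* cells of day 11, the 2 lower became 1 with a *Myl7* limit of 15, with 5 CPM added and with other cells under 1 *Myl7* UMI per 10000. The 2 lower in *Myog* cells became 1 with a limit of 60 and with 5 CPM added. Between *Myl7*-high and *Myog* cells the count lower went from 0 to 1 with every cell of more than 200 genes, with doublets kept, with at least 2 UMIs of *Myog* or *Cdh5*, and with mitochondrial, ribosomal protein and sarcomere genes out of the denominator. Within *Myl7*-high cells the 1 lower at day 11 became 2 with a limit of 60. Over all cells, the 2 higher at day 11 became 1 with averaged single-cell CPM, and the 1 lower at day 5 became 0 with 5 CPM added. Smaller moves, by 1 gene, were *Nkx2-5* lower in *Cdh5* cells of day 6 under 5 alternatives, *Smyd1* lower in those of day 11 under 2, *Mef2d* higher in *Myog* cells under 6, and the loss in *Cdh5* cells of day 6 of *Mef2c* with a limit of 60 and of *Mef2d* with 5 CPM added. Over all genes, adding 5 CPM left 525 of 881 and 1483 of 2272 lower in *Myl7*-high cells of days 6 and 11, 1107 of 1986 lower in *Myog* cells, 456 of 857 and 1113 of 1911 lower in *Cdh5* cells of days 6 and 11, 183 of 348 lower at day 5, 806 of 1297 higher at day 6, 749 of 1254 higher at day 11, and 552 of 868 higher and 479 of 751 lower in *Myl7*-high cells of day 11 against day 6. With every cell of more than 200 genes, 538 genes were lower in *Cdh5* cells of day 6.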

Other observations

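The cells that met more than 1 of the 3 limits were in no comparison. The 8 cells of day 6 were all past the *Myl7* and *Cdh5* limits and held *Mef2c* at 427 CPM (95% interval 352 to 513), *Nkx2-5* at 45.0 CPM (23.2 to 78.5) and *Smyd1* at 97.4 CPM (63.6 to 143). Of the 29 cells of day 11, 19 were past the *Myl7* and *Myog* limits and 10 past the *Myl7* and *Cdh5* limits. Together they held *Nkx2-5* at 137 CPM (113 to 164), *Mef2a* at 159.7 CPM (134 to 189), *Myocd* at 48.4 CPM (34.6 to 65.9) and *Smyd1* at 109 CPM (87.5 to 134).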
